A study of Mus musculus with 18 samples.

Results

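Voltage-gated sodium and calcium channels and the hyperpolarization-activated HCN channels were examined in hippocampal astrocyte-enriched RNA and total hippocampal RNA of a kainic acid mouse model of mesial temporal lobe epilepsy. Members were chosen by gene symbol, from the sodium channel alpha (Scn with a number and "a") and beta (Scn with a number and "b") subunits, the calcium channel alpha1 (Cacna1), alpha2delta (Cacna2d), beta (Cacnb) and gamma (Cacng) subunits, and the HCN subunits (Hcn). This gave 44 of the 55291 genes in the count files, of which 10 encode sodium alpha, 4 sodium beta, 10 calcium alpha1, 4 alpha2delta, 4 calcium beta, 8 gamma and 4 HCN subunits.

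All samples came from male C57BL/6J mice that were 6 weeks old when AAV_DJ-GfaABC1D-EGFP-Rpl10a was injected into the right CA3. The GfaABC1D promoter drives an EGFP-tagged ribosomal protein in astrocytes, so that anti-GFP immunoprecipitation (IP) enriches ribosome-bound RNA of the transduced cells, while the input is total RNA of the same homogenate. In the KA group, 50 nL of 20 mM kainic acid was injected into the right dentate gyrus 2 weeks after the AAV and RNA was taken 14 days later. In the AAV control, RNA was taken 2 weeks after the AAV with no second injection. In the PBS group, PBS was injected into the hippocampus after the AAV, at a time and volume not given in the sources used here. KA therefore differed from the AAV control also by a second injection and by a longer time after the AAV, and these cannot be told apart. Each group had 3 samples, each pooled from the right hippocampi of 3 to 4 mice, and each sample gave 1 IP and 1 input library.

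The 18 libraries held between 7991681 and 16032180 counts, and the channel genes took 0.0706% to 0.15% of the counts in IP and 0.174% to 0.265% in input. Replicates 1 and 2 of KA and AAV control were sequenced in 1 run, replicate 3 of both in another, and all PBS libraries in the third, so that run and PBS group cannot be told apart. Summed FPKM (read fragments scaled to transcript length and library size) of 6 astrocyte markers was 7.48 to 12.3 times higher in IP than in the matching input of the AAV control and PBS groups, and 2.85 to 3.37 times higher in KA. 2 PBS IP libraries differed from the others of their group for the channel genes, which is a description and was not tested. PBS IP replicate 3 held the 6 measured pore-forming alpha subunits of sodium and calcium channels at a median of 1.92 times the other PBS IP libraries, and PBS IP replicate 2 held them at 0.507 times. Across 9559 genes, the FPKM of PBS IP replicate 3 over the other PBS IP libraries had a Spearman rho of 0.349 with the length behind the FPKM, and that of replicate 2 had -0.343 (a description over genes, which are not independent).

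Sodium and high-threshold calcium channels are built around 1 large alpha subunit that forms the pore, and sodium beta, alpha2delta and calcium beta subunits bind it and set its surface level and gating. HCN subunits form cation channels that open on hyperpolarization and carry the h-current of neurons. Several gamma subunits, the TARPs, bind AMPA receptors rather than calcium channels. In the hippocampus these genes are known chiefly from neurons, where sodium channels carry the action potential and presynaptic calcium channels trigger transmitter release.

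Of the 44 genes, 19 were above FPKM 1 in all 9 IP libraries and are called measured in IP, 11 were above 1 in some IP libraries, and 14 were at or below 1 in all 9 and are not measured in IP. In input, 26 were measured, 6 partly and 12 not. Among the 12 genes measured in neither were Scn4a, Scn7a, Scn9a, Scn10a and Scn11a, the alpha1 genes Cacna1f and Cacna1s, Cacna2d2, Cacna2d4, Cacng1 and Hcn4. These include the skeletal muscle genes Scn4a, Cacna1s and Cacng1 and the sensory neuron genes Scn10a and Scn11a. Not measured in IP but partly measured in input were Hcn3 and Scn4b.

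The 4 sodium channel alpha subunits measured in all libraries were Scn2a and Scn8a, which encode the sodium channels Nav1.2 and Nav1.6 of principal neurons, Scn1a, which encodes Nav1.1 of interneurons, and Scn3a, which encodes Nav1.3 and is known for its high level in development. In AAV control input the mean FPKM of Scn2a was 19.9 ± 1.93, of Scn8a 17.2 ± 1.35, of Scn1a 7.92 ± 1.15 and of Scn3a 3.81 ± 0.79 (SD, n = 3). The calcium channel pores measured in IP were Cacna1a and Cacna1b, which encode the presynaptic P/Q-type and N-type channels.

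Promoters are shown for 3 genes that were higher in the KA group in IP, Hcn2, Cacna2d1 and Cacng6, since they differ in base composition. The RefSeq promoter table (build GRCm38.p6, 250 bases before to 50 after a start) held 43 promoters for 32 of the 44 genes. Scn3b, Scn3a, Cacng4 and Cacna2d4 had none in it. Capitals mark the SP1 GC box GGGCGG on either strand, where overlapping matches run together.
Hcn2, chr10:79716384-79716683, plus strand: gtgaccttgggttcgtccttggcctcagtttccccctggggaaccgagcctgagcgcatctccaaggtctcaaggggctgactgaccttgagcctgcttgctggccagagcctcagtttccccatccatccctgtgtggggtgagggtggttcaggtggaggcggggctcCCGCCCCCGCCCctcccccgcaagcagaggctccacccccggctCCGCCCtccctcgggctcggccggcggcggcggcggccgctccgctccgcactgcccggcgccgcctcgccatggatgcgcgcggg
Cacna2d1, chr5:15934441-15934740, plus strand: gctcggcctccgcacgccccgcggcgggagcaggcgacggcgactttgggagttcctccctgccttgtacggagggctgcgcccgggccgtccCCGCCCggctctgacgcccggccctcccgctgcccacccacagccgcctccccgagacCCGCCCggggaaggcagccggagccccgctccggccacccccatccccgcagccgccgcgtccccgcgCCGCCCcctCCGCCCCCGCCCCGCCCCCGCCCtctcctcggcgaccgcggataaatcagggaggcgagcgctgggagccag
Cacng6, chr7:3424412-3424711, plus strand: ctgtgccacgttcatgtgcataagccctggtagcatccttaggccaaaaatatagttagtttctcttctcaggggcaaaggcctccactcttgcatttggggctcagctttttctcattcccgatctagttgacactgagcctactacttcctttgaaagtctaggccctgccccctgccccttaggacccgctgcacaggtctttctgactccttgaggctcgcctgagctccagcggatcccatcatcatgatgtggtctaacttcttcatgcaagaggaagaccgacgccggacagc

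GC content was 72.3% in the Hcn2 promoter, 80.0% in that of Cacna2d1 and 52.7% in that of Cacng6, and the median of all 32851 promoters was 52.7%. The GC box was found 3 times in the Hcn2 window, 7 times in that of Cacna2d1 and not in that of Cacng6. It occurred in 18 of the 43 member promoters and in 35.7% of all. These matches are letters in a window and not sites of binding.

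For the effect of kainic acid in astrocyte-enriched RNA, the KA group was compared with the AAV control in IP. Hcn2, a main HCN subunit of the forebrain, and the calcium channel subunits Cacna2d1 and Cacnb4 were among those higher in KA, and the TARP Cacng4 and the sodium channel pore Scn3a were lower. With genes called at an adjusted p under 0.05 (edgeR quasi-likelihood test, Benjamini-Hochberg over all genes tested) and a change of at least 1 on the log2 scale, 4 of the 19 tested members were higher and 2 lower. Of all 9729 genes tested, 6.39% were called higher and 5.22% lower. All KA IP libraries lay above all AAV control IP libraries for 16.8% of these genes and for 8 of the 19 members. They lay below them for 20.2% of the genes and for 5 members. The median log2 fold change was 0.21 over the members and -0.02 over all genes. In bulk RNA, fewer cells of a type and less RNA per cell cannot be told apart.

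FPKM of Hcn2 in IP was 25.6, 19.9 and 9.82 in KA, 3.54, 4.91 and 2.81 in AAV control and 5.18, 3.48 and 3.85 in PBS. Every KA library lay above every control library, with the widest spread within KA. In input the 9 values ranged from 7.60 to 12.4 and the groups overlapped, so that 2 of the 3 KA libraries and no control library held a higher Hcn2 FPKM in IP than any input did. The log2 fold change in IP was 2.34 ± 0.32 (SE) against AAV control, with an adjusted p of 0.0030, and 2.11 ± 0.29 against PBS, with an adjusted p of 5.1e-04. In input it was 0.18 ± 0.16 against AAV control and 0.29 ± 0.11 against PBS, with adjusted p of 0.63 and 0.083. Hcn2 lies on chromosome 10 (GRCm38, 79716634-79736108) and overlaps no other annotated gene.

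Scn2b, the sodium channel beta2 subunit, was not called in this comparison. It had FPKM of 7.21, 7.55 and 6.56 in KA IP against 5.74, 6.09 and 3.34 in AAV control, a log2 fold change of 0.57 ± 0.21 with an adjusted p of 0.092.

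**Figure D1:**
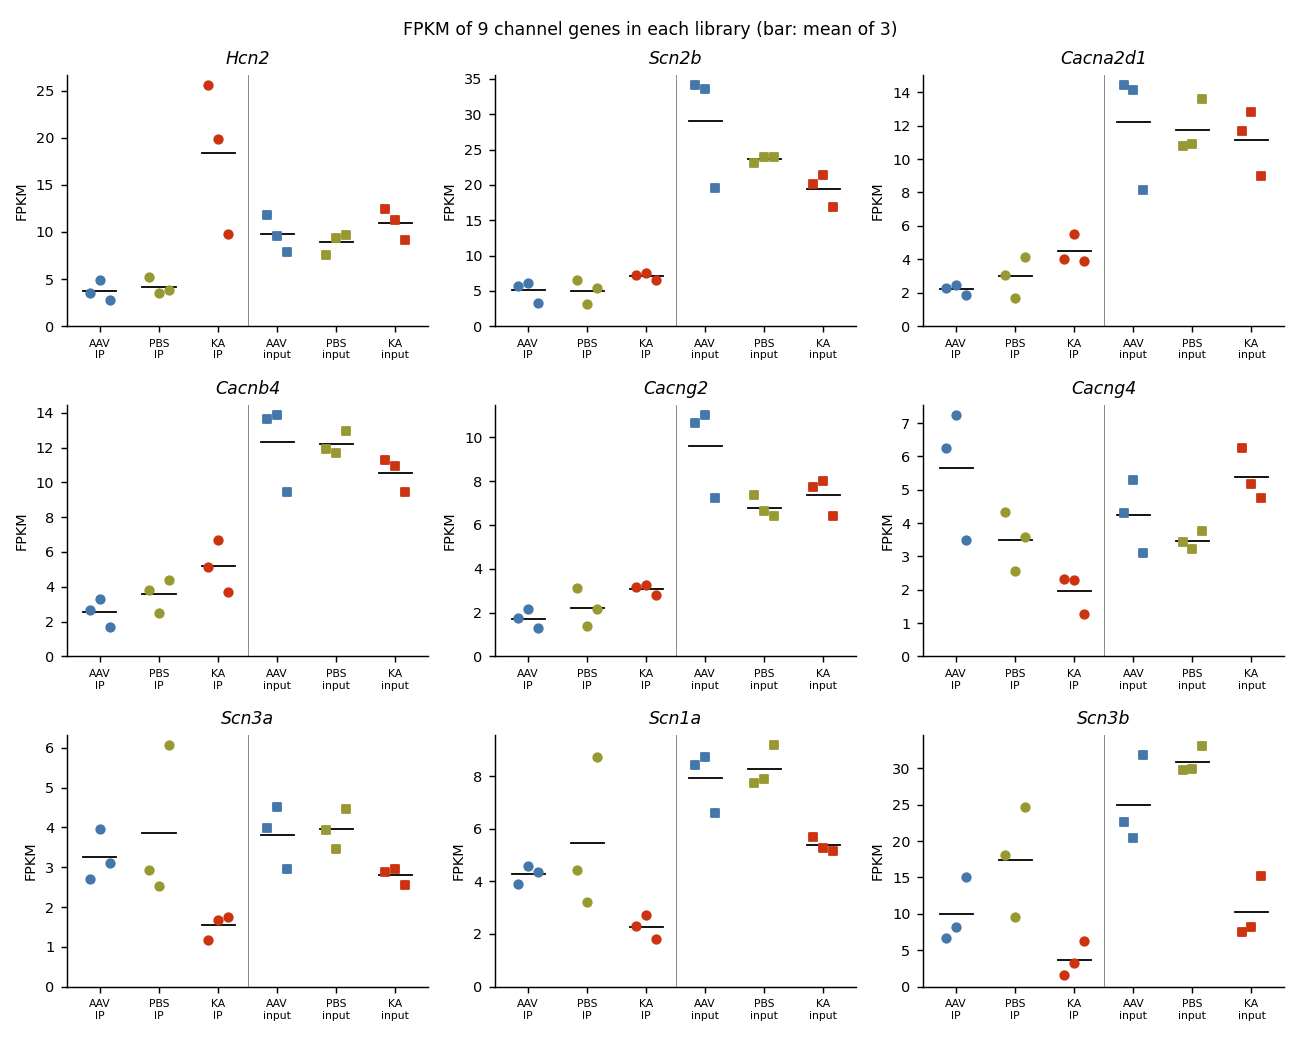
FPKM of 9 channel genes in the 18 libraries, with circles for IP, squares for input and a bar at the mean of the 3 samples of a group. Hcn2 is higher in all 3 KA IP libraries than in any control IP library, and Cacng4, Scn3a, Scn1a and Scn3b are lower in KA IP than in every AAV control and PBS IP library. Of all genes tested, KA IP lay wholly above AAV control IP for 16.8% and wholly below for 20.2%. Against PBS IP it was 22.7% and 23.3%.

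Of the calcium channel auxiliary subunits, Cacna2d1 and Cacnb4 were called higher against AAV control, and neither against PBS. Cacna2d1, the alpha2delta-1 subunit to which gabapentin binds, had FPKM of 4.01, 5.51 and 3.89 in KA IP, 2.28, 2.48 and 1.84 in AAV control IP and 3.07, 1.69 and 4.17 in PBS IP. KA lay above AAV control in all libraries and overlapped with PBS. Against AAV control the log2 fold change was 1.08 ± 0.18 (adjusted p = 0.0061), and against PBS it was 0.62 ± 0.25 (adjusted p = 0.069). Without KA replicate 2 the fold change against AAV control was 0.94 and was no longer called.

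Cacnb4, the cytoplasmic beta4 subunit, had FPKM of 5.16, 6.67 and 3.72 in KA IP, 2.68, 3.33 and 1.67 in AAV control IP and 3.81, 2.47 and 4.39 in PBS IP. Its log2 fold change was 1.08 ± 0.25 against AAV control (adjusted p = 0.023), and the call was lost when any of 4 replicates was left out, AAV control 1 or 3 or KA 1 or 2. Against PBS it was 0.55 ± 0.22 (adjusted p = 0.066). Cacnb1 had FPKM of 4.16, 4.09 and 4.55 in KA IP, 2.55, 2.56 and 3.07 in AAV control IP and 3.89, 2.78 and 4.84 in PBS IP. Its fold change against AAV control, 0.70 ± 0.21 with an adjusted p of 0.050, was below the size required for a call. Cacnb3 had 0.77 ± 0.27 with an adjusted p of 0.084. Annotated genes on the opposite strand overlap Cacna2d1, Cacnb4 and Cacnb1, and strand in the counting is not given in the sources used here.

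Among the TARPs, Cacng4 fell. Cacng4 (gamma-4), which is known from glia as well as neurons, had FPKM of 2.31, 2.28 and 1.28 in KA IP, 6.24, 7.25 and 3.49 in AAV control IP and 4.35, 2.57 and 3.57 in PBS IP. Every KA library was below every control library, and PBS replicate 2 was nearest. The log2 fold change was -1.47 ± 0.29 against AAV control (adjusted p = 0.012) and -0.84 ± 0.25 against PBS, where the adjusted p was 0.024 and the change too small for a call. Input moved the other way, with FPKM of 4.75 to 6.27 in KA, 3.11 to 5.30 in AAV control and 3.22 to 3.77 in PBS, and fold changes of 0.36 ± 0.20 (adjusted p = 0.40) and 0.62 ± 0.14 (adjusted p = 0.0083). Cacng2, stargazin, had FPKM of 3.18, 3.24 and 2.81 in KA IP, 1.74, 2.16 and 1.27 in AAV control IP and 3.10, 1.40 and 2.16 in PBS IP. Its change of 0.90 ± 0.20 against AAV control had an adjusted p of 0.018 and was under the size required.

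The 2 further TARPs tested were not called in IP. Cacng3 had a log2 fold change of 0.22 ± 0.37 against AAV control, and Cacng8 had -0.51 ± 0.33, with adjusted p of 0.72 and 0.31. Cacng4 overlaps Gm11650 on the opposite strand.

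Of the sodium channel pores, Scn3a had FPKM of 1.18, 1.67 and 1.76 in KA IP, 2.71, 3.96 and 3.11 in AAV control IP and 2.94, 2.54 and 6.08 in PBS IP, with no overlap between KA and the controls. Its log2 fold change was -1.02 ± 0.24 against AAV control (adjusted p = 0.023) and -1.27 ± 0.29 against PBS (adjusted p = 0.0070). Against AAV control the call was lost without AAV control replicate 2 or 3 or KA replicate 1 or 2, where the fold change ranged from -1.04 to -0.82, and without the FPKM filter (-0.93). Scn1a had FPKM of 2.30, 2.71 and 1.79 in KA IP, 3.91, 4.59 and 4.35 in AAV control IP and 4.43, 3.22 and 8.72 in PBS IP. Its fold change was -0.88 ± 0.18 against AAV control, with an adjusted p of 0.013 but too small for a call, and -1.23 ± 0.28 against PBS (adjusted p = 0.0064). Scn2a and Scn8a were not called in IP, with 0.21 ± 0.21 and -0.16 ± 0.20 against AAV control and -0.19 ± 0.25 and -0.61 ± 0.25 against PBS.

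Scn3b, the beta3 subunit, had FPKM of 1.60, 3.22 and 6.21 in KA IP, 6.66, 8.20 and 15.0 in AAV control IP and 18.1, 9.51 and 24.7 in PBS IP. KA lay below both control groups, although KA replicate 3 was close to AAV control replicate 1. In input it was 7.48, 8.23 and 15.1 in KA, 22.7, 20.5 and 31.9 in AAV control and 29.8, 30.0 and 33.0 in PBS, so that KA again lay below both. Of all genes tested in input, 10.4% lay wholly below AAV control in KA and 17.5% wholly below PBS. Against PBS its log2 fold change was -2.16 ± 0.45 in IP (adjusted p = 0.0047) and -1.57 ± 0.25 in input (adjusted p = 0.0013).

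Against AAV control the fold change of Scn3b was -1.37 ± 0.55 in IP and -1.27 ± 0.35 in input, with adjusted p of 0.12 and 0.092, and neither was called. With the replicate number as a block, since same-numbered KA and AAV control samples deviated together, it was called in both, at -1.48 ± 0.19 in IP (adjusted p = 0.0022) and -1.32 ± 0.13 in input (adjusted p = 5.7e-04). It was also called in both with DESeq2 (adjusted p = 0.044 and 0.0053), and without KA replicate 3, at -2.09 in IP and -1.74 in input. Scn3b overlaps Gm47266.

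**Figure D2:**
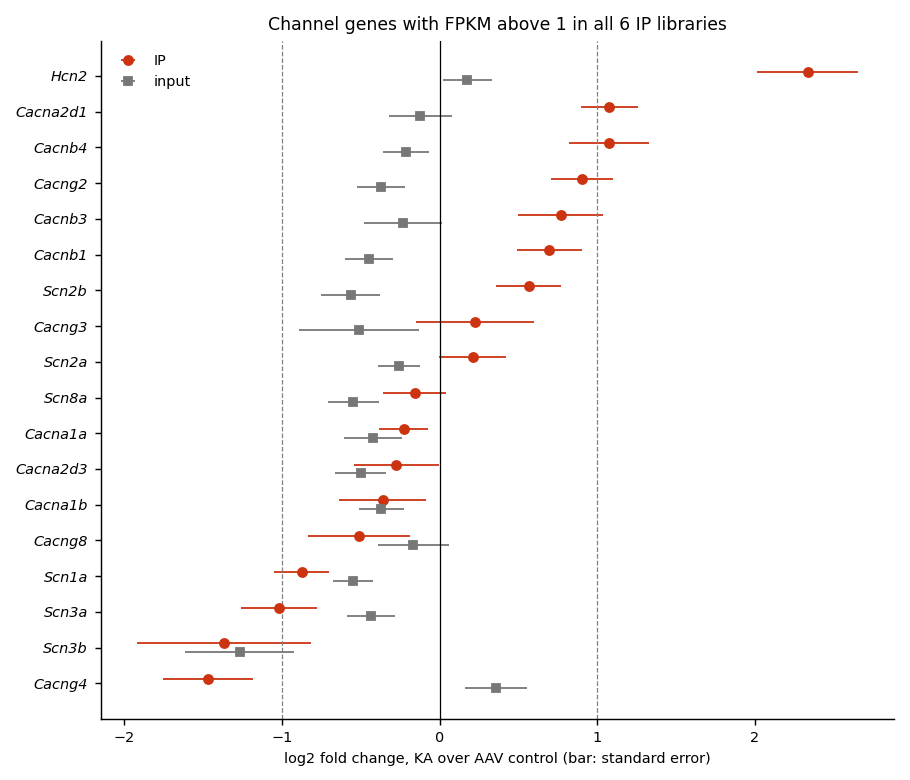
Log2 fold change of KA over AAV control in IP (circles) and input (squares) with standard errors, for 18 channel genes measured in all 6 IP libraries. IP values run from 2.34 for Hcn2 to -1.47 for Cacng4, whereas the input values of all but Scn3b stay within the dashed lines at 1 and -1.

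Against the PBS group, 2 of 20 tested members were higher in KA IP, with Hcn2 among them, and 5 were lower, Scn3b, Scn3a, Scn1a, Cacna1a and Cacna1b. Over all 9847 genes tested, 8.08% were higher and 9.34% lower. All KA IP libraries lay above all PBS IP libraries for 22.7% of these genes and for 3 of the 20 members. They lay below them for 23.3% of the genes and for 6 members. The comparison shares its KA libraries with that against AAV control. Cacna1a had FPKM of 2.49, 2.50 and 2.28 in KA IP, 4.53, 3.54 and 7.37 in PBS IP and 2.69, 3.25 and 2.90 in AAV control IP, and Cacna1b had 1.04, 1.75 and 1.63 in KA, 3.19, 2.25 and 5.47 in PBS and 1.57, 2.14 and 2.18 in AAV control. Their log2 fold changes were -1.05 ± 0.21 (adjusted p = 0.0036) and -1.25 ± 0.29 (adjusted p = 0.0078) against PBS, and -0.23 ± 0.15 and -0.36 ± 0.28 against AAV control (adjusted p of 0.34 and 0.40). PBS replicate 3, described above, was the highest PBS library for all 5 lower genes. Without it 1 lower call was left, that of Scn3b at -1.76, and Cacna1a, Cacna1b, Scn1a and Scn3a had -0.80, -0.93, -0.82 and -0.89. The calls of Scn1a and Cacna1a were also lost without the FPKM filter, at -0.99 and -0.83. Over the genes tested, fold change against PBS in IP had a Spearman rho of -0.215 with the length behind the FPKM. The part of length was not tested.

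Between the PBS and AAV control groups in IP, 0 of 22 members were called in either direction by edgeR, DESeq2 or limma-voom, and edgeR called 0% of 10667 genes. At an unadjusted p under 0.05 by edgeR, 1153 of all genes and 8 members differed, 7 of these members being higher in PBS. Of the 22 members 21 had a positive fold change and the median was 0.44, against 0.03 over all genes. Without AAV control replicate 3, Scn3b, Cacnb3 and Cacng3 were called higher in PBS, at 1.28, 1.10 and 1.07.

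In total hippocampal RNA few channel genes passed the call. Against AAV control 0 of 27 tested members were called by edgeR and limma-voom and 1, Scn3b, by DESeq2, while 24 of 27 had a negative fold change with a median of -0.42 (all genes -0.03), and 15 had an unadjusted p under 0.05, all with a negative change, as against 1939 of all genes in either direction. Of all 10809 genes 2.52% were higher and 0.185% lower. Against PBS, Scn3b and Cacng3 were lower and 0 of 27 were higher, with 4.26% and 1.09% of 10849 genes higher and lower. There 22 of 27 had a negative fold change, with a median of -0.44 (all genes 0.01), 17 of the 27 had an adjusted p under 0.05 with a negative change, and Cacng4 had one with a positive change, while 3006 of the 10849 genes had an adjusted p under 0.05 in either direction. At an unadjusted p under 0.05, 3 members were higher by edgeR and by limma-voom and 2 by DESeq2, and none of the 3 tools called any of them. The 6 neuron markers had a median log2 fold change in input of -0.39 against AAV control and -0.36 against PBS, with 0 called.

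Cacng3 (gamma-3) had FPKM of 8.87, 9.60 and 11.2 in KA input, 10.7, 8.45 and 22.2 in AAV control input and 16.1, 19.8 and 24.9 in PBS input. KA lay below PBS and overlapped with AAV control, whose replicate 3 was its highest. The log2 fold change was -1.03 ± 0.15 against PBS (adjusted p = 7.8e-04), which fell under the size required without KA replicate 1 or 2 or PBS replicate 3 (-0.93, -0.98 and -0.91), and -0.51 ± 0.38 against AAV control (adjusted p = 0.56). All 4 measured sodium channel pores had a negative change in input against both controls, from -0.55 to -0.26 against AAV control and from -0.66 to -0.51 against PBS. The 7 alpha1 genes tested in input ran from -0.68 for Cacna1d to -0.37 for Cacna1b against AAV control. Over the genes tested in input, fold change against AAV control had a Spearman rho of -0.254 with the length behind the FPKM. Against PBS the rho was -0.170. That length was 11.1 to 15.8 kb for the 4 sodium channel pores. The part of length in these changes was not tested.

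Between PBS and AAV control in input, 0 of 27 members were called by any of the 3 tools, and edgeR called 0% of 10924 genes. At an unadjusted p under 0.05 by edgeR, 901 of all genes and 2 members differed. Without AAV control replicate 3, Cacng3 was called at 1.16.

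Marker genes of other cells moved with these groups. In IP the summed FPKM of 6 neuron markers was 235 to 294 in KA, 118 to 124 in AAV control and 106 to 187 in PBS, that of 4 oligodendrocyte markers was 1146 to 2190, 192 to 840 and 213 to 451, and that of 4 dentate granule cell markers was 24.2 to 51.5, 13.5 to 17.3 and 11.6 to 20.5. Against AAV control 3 of 6 neuron, 2 of 4 tested oligodendrocyte and 2 of 3 tested granule cell markers were called higher in IP. The granule cell marker Dsp, not tested there, went the other way. Its mean FPKM was 0.654 in KA IP, 1.50 in AAV control IP and 1.32 in PBS IP. So did the neuron marker Map2, with means of 11.2, 12.5 and 13.4. The means of the other neuron and granule cell markers were higher in KA IP. Astrocyte markers summed to 2292 to 2661 in KA IP, 4802 to 8099 in AAV control IP and 5478 to 9625 in PBS IP, and 3 of 6 were called lower. Aldoc and Slc1a2 led the sum. Aqp4 went the other way, with a mean FPKM of 352 in KA IP, 183 in AAV control IP and 186 in PBS IP. The means of the other astrocyte markers were lower in KA IP. CA pyramidal cell markers were lower in KA, at 6.62 to 9.16 against 20.8 to 31.1 in AAV control IP and at 74.1 to 107 against 155 to 217 in input. No marker on these 5 lists was at 0 throughout a group. Interneuron markers summed to 70.4 to 92.0 in KA IP, 163 to 238 in AAV control IP and 145 to 301 in PBS IP, a sum led in the controls by Sst, which was called lower in KA IP against AAV control (-3.36 ± 0.20, adjusted p = 1.3e-04), while Gad1, Gad2 and Pvalb, the other 3 of the 4 tested, were called higher (1.31, 1.25 and 1.57). Microglia markers summed to 11.5 to 27.8 in KA IP, 5.58 to 9.64 in AAV control IP and 7.27 to 10.7 in PBS IP. In input they summed to 559 to 1022 in KA, 58.5 to 94.7 in AAV control and 72.1 to 78.6 in PBS. C1qa led the microglia sum in KA IP, with mean FPKM of 14.6 in KA, 3.53 in AAV control and 4.15 in PBS. In IP, P2ry12 was lower in KA, at 1.38 against 2.06 and 2.34, and Csf1r lay between the control means. Cx3cr1 and Tmem119 were higher in KA IP. The neuron sum in input was 626 to 658 in KA, 820 to 892 in AAV control and 836 to 901 in PBS.

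The library with the most Hcn2 in KA IP, replicate 1, also had the highest oligodendrocyte sum of the KA IP libraries, and replicate 3 had the lowest of both. This order was shared by the sums of microglia markers (27.8, 19.4 and 11.5) and of pericyte and smooth muscle markers (12.9, 7.73 and 5.97). The neuron sum ran the other way, at 235, 266 and 294. Relative to input, the oligodendrocyte sum was 2.59, 2.16 and 1.78 in KA replicates 1, 2 and 3, and Hcn2 was 2.06, 1.77 and 1.07. In AAV control replicate 3 the oligodendrocyte sum was 840 in IP, 1.05 times its input, while Hcn2 there had the lowest FPKM of all IP libraries, 2.81, and 0.358 times its input. The neuron sum relative to input was 0.376 to 0.469 in KA and 0.137 to 0.151 in AAV control. The part of these other cells in the changes of the channel genes was not tested.

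**Figure D3:**
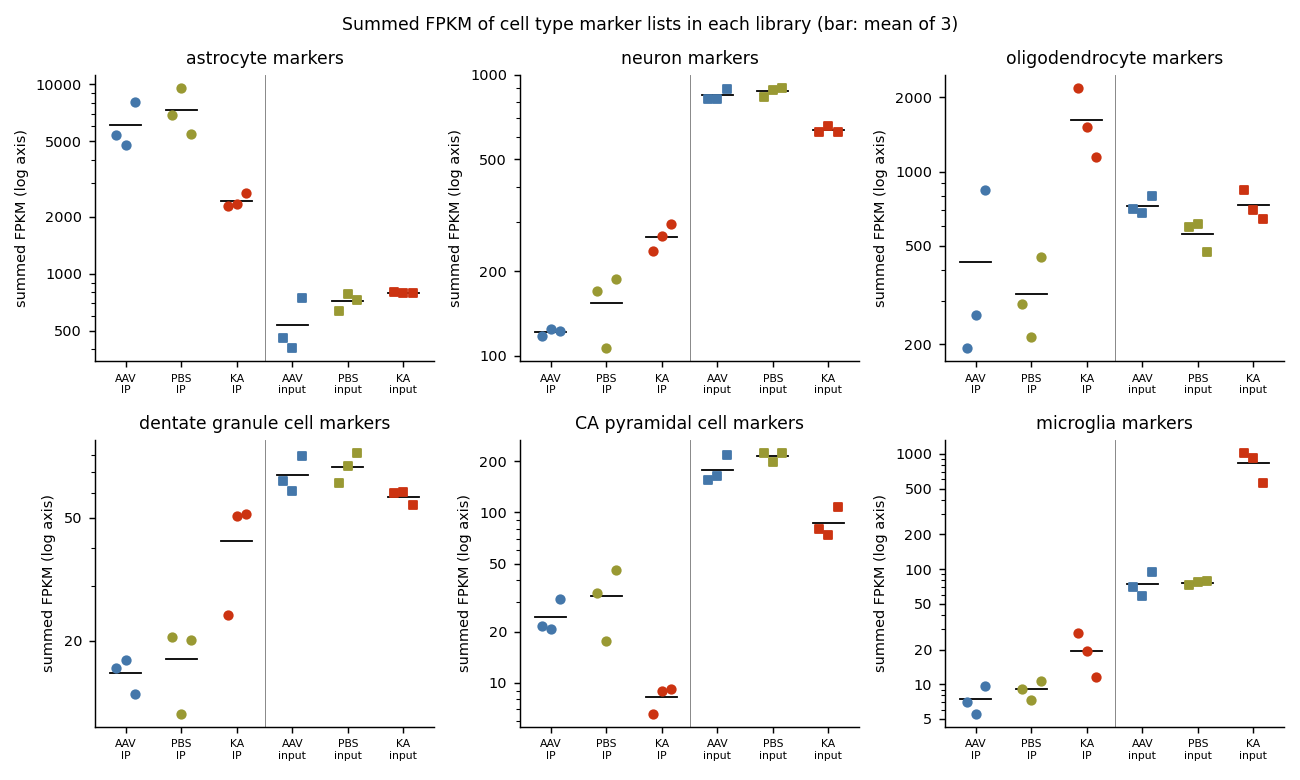
Summed FPKM of 6 marker lists in each library on log axes, with circles for IP, squares for input and a bar at the mean of 3 samples. KA IP libraries have a lower astrocyte sum and higher neuron and oligodendrocyte sums than the AAV control and PBS IP libraries. In the means, the astrocyte marker Aqp4 was higher in KA IP, and the neuron marker Map2 and the granule cell marker Dsp were lower.

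IP was compared with input within each group. In the AAV control 13 of 22 tested members were lower in IP and 0 were higher, and 21 of 22 had a negative change, with a median of -1.19 against 0.01 over all genes. Of all 9961 genes 13.3% were higher and 13.1% lower. In PBS 10 of 23 members were lower and 0 higher (14.8% and 12.3% of 10401 genes higher and lower), and in KA 7 of 21 were lower and 0 higher (8.11% and 4.51% of 10098 genes). With the homogenate as a block Scn3b was called lower in KA IP as well, at -1.35 ± 0.17 (adjusted p = 2.1e-04). Without the block, DESeq2 and limma-voom gave the same counts as edgeR, and at an unadjusted p under 0.05 no member was higher in AAV control or PBS, and 1, Hcn2, in KA. The median over the members was -0.74 in PBS and -0.86 in KA, so that it did not follow the count of calls.

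Among the lowest ratios of IP to input FPKM in the AAV control were those of several auxiliary subunits. Scn2b had 0.169, 0.181 and 0.170 in the 3 homogenates, Cacng2 0.163, 0.197 and 0.176, Cacna2d1 0.158, 0.176 and 0.225, and Cacnb4 0.197, 0.240 and 0.177. All 4 were called lower in IP, with log2 changes from -2.38 for Scn2b to -2.13 for Cacnb4. Hcn2, at 0.299, 0.511 and 0.358, was called lower as well, at -1.23 ± 0.22 (adjusted p = 0.0037).

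Highest in the AAV control were Cacng4, Scn3a, Cacna1d, Cacna1a and Cacng8. Cacng4 had ratios of 1.45, 1.37 and 1.12, the only member whose ratio was above 1 in all 3 AAV control homogenates among the 22 tested, but its log2 change of 0.56 ± 0.27 was not called (adjusted p = 0.15). Scn3a had 0.682, 0.876 and 1.06, Cacna1d, which encodes an L-type pore, 0.495, 0.656 and 0.754, Cacna1a 0.495, 0.528 and 0.844, and Cacng8 0.664, 0.737 and 0.461. With the FPKM filter no member was called higher in IP than in input in any group with all samples, whereas the astrocyte marker sum was at least 2.85 times higher in IP in each of the 9 homogenates. Hcn2 came nearest, with 0.94 ± 0.26 in KA (adjusted p = 0.024), and was called at 1.15 without KA replicate 3.

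**Figure D4:**
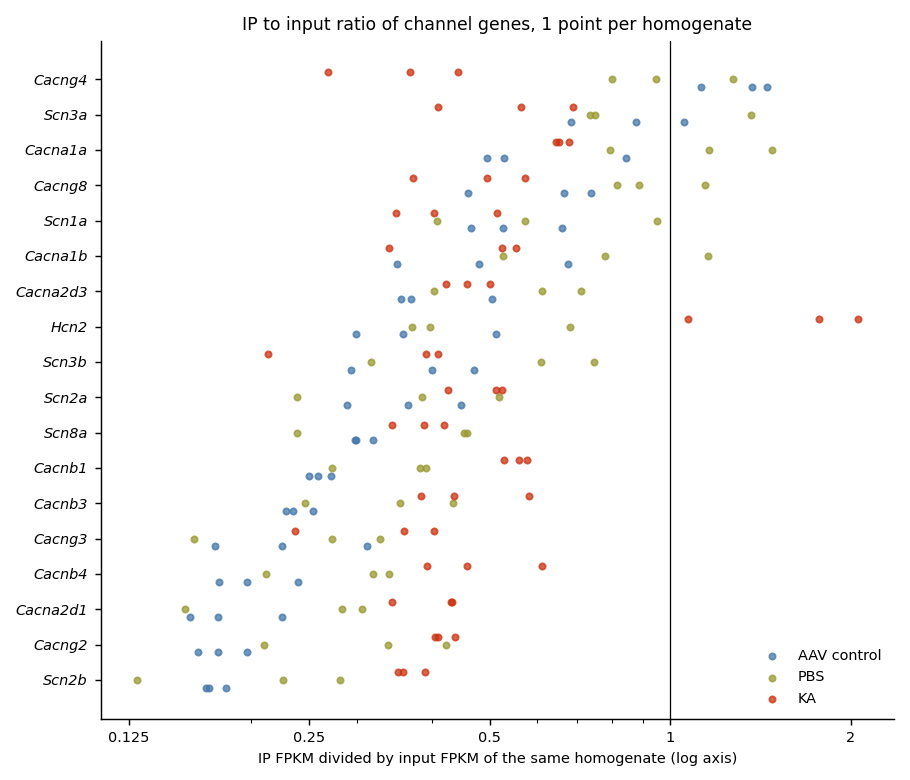
Ratio of IP to input FPKM of the same homogenate for 18 channel genes measured in IP, on a log axis, 1 point per homogenate, ordered by the AAV control mean. Hcn2 lies right of 1 in all 3 KA homogenates and left of it in the 6 others, Cacng4 moves from right of 1 in AAV control to the left in KA, and Scn2b stays left of 1 in all 9.

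Whether kainic acid changed a gene by a different amount in IP than in input was tested as an interaction over 12 libraries. With AAV control as baseline, 7 of 19 members had a higher change in IP and 1 a lower one (5.10% and 4.32% of 9180 genes). With PBS as baseline it was 2 and 1 of 20 (4.98% and 8.88% of 9305). Hcn2 had a difference of 2.18 ± 0.37 on the log2 scale from the AAV control baseline and 1.81 ± 0.34 from PBS, with adjusted p of 0.0029 and 0.0023. Cacng4 had -1.81 ± 0.36 and -1.48 ± 0.29, with adjusted p of 0.0064 and 0.0029. These 4 calls held under every alternative run.

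Their ratios of IP to input show the same in each homogenate. Hcn2 went from 0.390 ± 0.109 in AAV control and 0.483 ± 0.172 in PBS to 1.63 ± 0.51 in KA, and Cacng4 from 1.31 ± 0.17 and 1.01 ± 0.24 down to 0.360 ± 0.087 (SD, n = 3 homogenates). For both, every KA homogenate lay outside the range of the 6 control homogenates.

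Also called from the AAV control baseline were Cacnb4 (1.31 ± 0.30, adjusted p = 0.013), Cacng2 (1.29 ± 0.24, 0.0041), Cacna2d1 (1.22 ± 0.28, 0.013), Cacnb1 (1.16 ± 0.24, 0.0081) and Scn2b (1.15 ± 0.29, 0.020). From the PBS baseline they had 0.77, 0.36, 0.71, 0.69 and 0.81 and were not called. In the same test from AAV control, 4 of 6 neuron markers were called higher, with a median of 1.41. So were 2 of 3 granule cell markers, with a median of 1.54. From PBS it was 3 of 6 and 2 of 3, with medians of 1.02 and 1.19. All 5 channel genes had lower FPKM in IP than in input in every homogenate of all groups, as the plot of ratios shows. The interaction and the IP to input comparison use the same AAV control libraries. With the homogenate as a block Cacnb3 was called as well, at 1.01 ± 0.17. The alpha subunits tested with the FPKM filter gave no interaction call, with Scn1a, Scn2a, Scn3a, Scn8a, Cacna1a and Cacna1b between -0.56 and 0.49 from the AAV control baseline and between -0.77 and 0.39 from PBS. Without the filter the T-type pore Cacna1i was called from the AAV control baseline, at 1.31 ± 0.36 (adjusted p = 0.0094), but not from PBS, at 0.81 ± 0.31 (adjusted p = 0.089).

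Cacng6 (gamma-6) was left out by the FPKM filter. It had FPKM of 2.86, 1.46 and 1.75 in KA IP, 0.218, 0.212 and 0.276 in AAV control IP and 0.474, 0 and 0.289 in PBS IP, from 63, 30 and 38 counts in KA, 4, 4 and 7 in AAV control and 15, 0 and 6 in PBS. In input it had 2.15, 2.12 and 1.59 in KA, 0.253, 0.795 and 0.804 in AAV control and 0.956, 0.470 and 0.746 in PBS. In both fractions the 3 KA libraries lay above 1 and all 6 control libraries below it (share over all genes not computed). Fitted without the filter, its log2 fold change against AAV control was 3.18 ± 0.53 in IP (adjusted p = 1.0e-07) and 1.55 ± 0.41 in input (adjusted p = 0.0060), and against PBS it was 3.11 ± 0.48 and 1.38 ± 0.35 (adjusted p = 4.6e-09 and 0.0012). In that edgeR fit the change of Cacng6 in IP against AAV control had an unadjusted p of 2.3e-09. Hcn2 in the main fit, at 2.34 ± 0.32, had 9.3e-05, although its change was larger relative to its SE. Adjusted p from fits without the filter are therefore not to be set beside those of the main fits. Cacng6 overlaps no other gene.

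Cacna2d4, an alpha2delta subunit known from the retina, stayed under FPKM 1 everywhere and is not measured by the rule. Its FPKM was 0.749, 0.810 and 0.741 in KA IP, 0.0683, 0.143 and 0.222 in AAV control IP and 0.119, 0.111 and 0.432 in PBS IP, from 77 to 80 counts in KA, 6 to 27 in AAV control and 12 to 43 in PBS. Without the filter the log2 fold change in IP was 2.49 ± 0.39 against AAV control and 2.12 ± 0.35 against PBS (adjusted p = 1.1e-08 and 3.2e-08), and KA IP was higher than KA input by 1.78 ± 0.29 (adjusted p = 2.2e-08). Its counts overlap Lrtm2 on the opposite strand.

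Cacng5 (gamma-5), a TARP known from Bergmann glia of the cerebellum, had FPKM of 1.43, 1.30 and 0.690 in KA IP against 0.422, 0.273 and 0.713 in AAV control IP and 1.03, 0.388 and 0.696 in PBS IP. KA overlapped with both. Without the filter its fold change was 1.35 ± 0.42 against AAV control (adjusted p = 0.014) and 0.87 ± 0.36 against PBS (adjusted p = 0.077), and the interaction was called from both baselines, at 1.67 ± 0.55 from AAV control (adjusted p = 0.043) and 1.39 ± 0.47 from PBS (adjusted p = 0.036).

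Scn4b, the beta4 subunit, was under 1 in IP throughout. In input its FPKM was 1.67, 0.906 and 1.12 in KA, 4.02, 3.59 and 2.38 in AAV control and 2.52, 2.74 and 2.55 in PBS, and KA lay below both (share over all genes not computed). Without the filter the log2 fold change in input was -1.44 ± 0.25 against AAV control (adjusted p = 1.2e-06) and -1.12 ± 0.20 against PBS (adjusted p = 4.6e-07).

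The calcium channel pores that were above 1 in some IP libraries were Cacna1c and Cacna1d (L-type), Cacna1e (R-type) and Cacna1g, Cacna1h and Cacna1i (T-type). Their FPKM in IP ran from 0.472 to 6.20, with the highest value that of Cacna1e, and in input from 0.808 to 6.67. Without the filter none was called in KA against AAV control in IP, and Cacna1e was lower against PBS by -1.10 ± 0.24 (adjusted p = 6.8e-05). Cacnb2, at 0.828 to 3.31 in IP, had -1.09 ± 0.24 against PBS (adjusted p = 6.8e-05) and -0.56 ± 0.26 against AAV control (adjusted p = 0.16). Cacng7 and Hcn3 reached at most 1.07 and 0.948 in IP, and neither was called in IP.

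Cacna1s had 6, 8 and 13 counts in KA IP and 7 to 11 in KA input, 0 or 1 in the 6 AAV control libraries, 0 in PBS input and 0, 2 and 5 in PBS IP. With FPKM of at most 0.181 it is not measured.

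**Figure D5:**
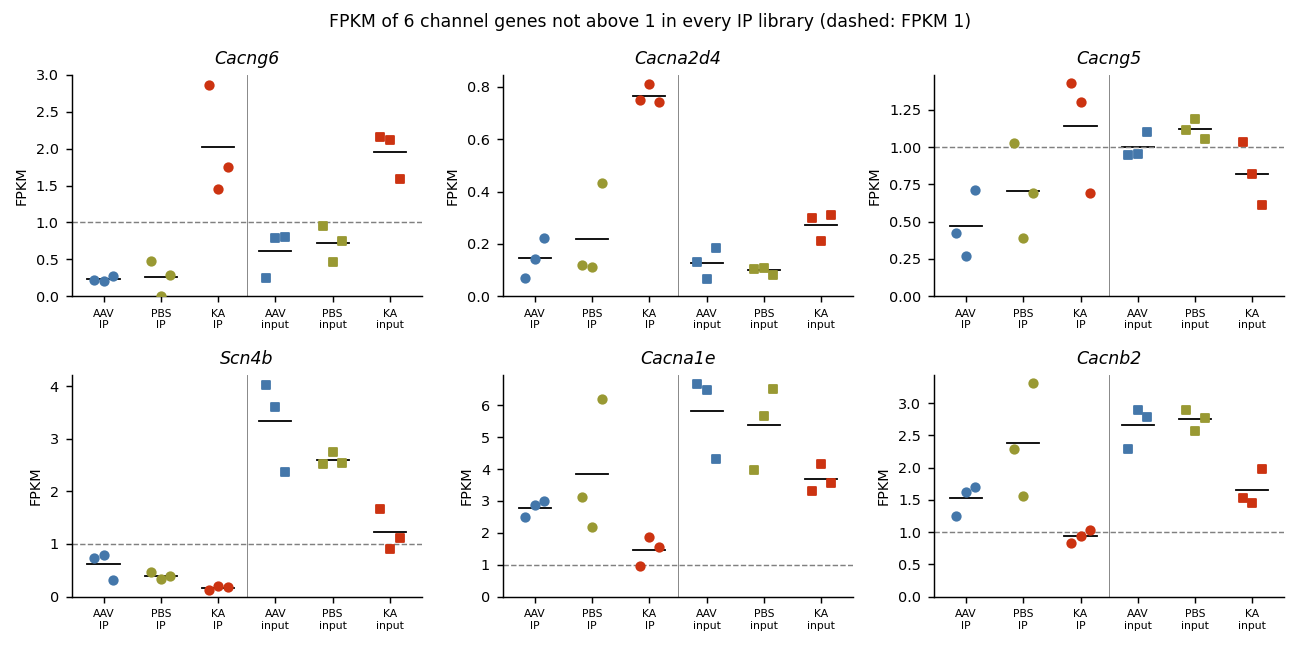
FPKM of 6 channel genes that were not above 1 in every IP library, by library, with a dashed line at 1, a bar at the mean of 3, circles for IP and squares for input. Cacng6 is above 1 in the 6 KA libraries only, Cacna2d4 is highest in the 3 KA IP libraries, and Cacna1e and Cacnb2 are lower in the 3 KA IP libraries than in the 6 control IP libraries. These 6 genes were chosen after their values were seen. Of genes passing the filter, KA IP lay wholly above AAV control IP for 16.8% and wholly below for 20.2%. Against PBS IP it was 22.7% and 23.3%. The share apart from both controls at once was not computed.

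A list of 50 genes for partners of these channels held 39 that were tested in KA against AAV control in IP, of which 6 were higher and 3 lower, with a median of 0.41, beside the 6.39% and 5.22% of all genes given above. Among the higher were Calm2, a calmodulin gene, at 2.82 ± 0.31 (adjusted p = 0.0012), Cnih3, an AMPA receptor partner, at 2.39 ± 0.18 (adjusted p = 3.5e-04), Snap25, a presynaptic SNARE that is also on the neuron list, at 1.41 ± 0.33 (adjusted p = 0.023), and Rimbp2, which ties presynaptic calcium channels to release sites, at 1.20 ± 0.23 (adjusted p = 0.011). Lower were the scaffolds Sptbn4, Ank2 and Ank3, of which Ank3 and Sptbn4 anchor sodium channels at the axon initial segment, at -1.45 ± 0.19, -1.38 ± 0.23 and -1.23 ± 0.26 (adjusted p = 0.0024, 0.0069 and 0.016). Against PBS 2 of 40 were higher and 4 lower (8.08% and 9.34% of all genes), with a median of -0.01. In input 0 of 45 were called against AAV control and 2 were lower against PBS. Reads of Calm2 and its near-identical copies may have been split in the counting.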

How the data were processed

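NEBNext Ultra II libraries of IP and input RNA were sequenced on an Illumina NovaSeq by the authors, who used STAR with the mm10 build and deposited 1 table per sample with raw counts per gene and FPKM, their length- and depth-scaled value. featureCounts and edgeR are named in the submitters' processing notes, without versions. The annotation, the use of strand and the handling of multimapped reads are not given in the sources used here. Samples were grouped by their labels. The p-values of the main fits measure the spread between pools of mice. Those of the fits without the FPKM filter rest largely on a spread shared over genes.

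From the deposited counts, edgeR 4.0.16 (R 4.3.3) was run with TMM factors and its quasi-likelihood F test on genes with the authors' FPKM above 1 in every compared library, with Benjamini-Hochberg adjustment over all genes tested. A gene was called when the adjusted p was under 0.05 and the log2 fold change was 1 or more in size, and the standard error was the fold change over the square root of F. Each fit used only the libraries compared. IP and input were compared within a group, and the interaction was fitted over 4 groups. Some of the comparisons were also fitted to simulated counts, with changes well above the size required for a call. Recovery of changes near that size was not tested. Alternatives were DESeq2 1.42.0, limma-voom (limma 3.58.1), RLE factors, no FPKM filter, a replicate block, the sequencing run as covariate and leaving out each replicate.

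IP and input of 1 number came from the same homogenate (correlation of deviations from the group means 0.155 to 0.752 over 9001 genes). Same-numbered KA and AAV control samples deviated together in IP (0.348 to 0.551) and input (0.352 to 0.550). Same-numbered KA and PBS samples did not (-0.294 to 0.106 in IP and -0.062 to 0.065 in input). Same-numbered KA and AAV control samples also shared a sequencing run. Correlations between samples of different number were not computed. Pairing by number and a shared run therefore cannot be told apart. The main fits used no block, and the replicate number was a block only in an alternative fit.

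Members, partner list and marker lists were chosen with earlier results of these data known. Values per library are given for those called in KA against a control or in the interaction and for the 5 highest and 5 lowest ratios of IP to input in the AAV control, and partners were named when called in KA against AAV control in IP, at most 4 in each direction. Cacng6, Cacna2d4, Cacng5, Scn4b, Cacna1e, Cacnb2 and Cacna1s were chosen for description after their values were seen. The counts cover all 44 members, of which 3 are not reported here by name. Locations are from GENCODE M21 (GRCm38, the assembly of mm10), in which all 44 genes were found, 25 of them overlapping another gene.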

Additional observations from a re-analysis of the deposited data

Results flagged for a closer look

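The change with kainic acid differed between IP and input, by the interaction test, for 7 of the genes described here from the AAV control baseline. On the log2 scale the change in IP exceeded that in input by 2.18 for Hcn2, 1.31 for Cacnb4, 1.29 for Cacng2, 1.22 for Cacna2d1, 1.16 for Cacnb1 and 1.15 for Scn2b, and it was lower in IP by -1.81 for Cacng4. From the PBS baseline 2 of these genes differed, Hcn2 at 1.81 and Cacng4 at -1.48. The interactions share their KA libraries. From the AAV control baseline 4 of 6 neuron markers were also called higher, with a median of 1.41. With 3 samples in a group, single libraries were not tested for standing apart.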

How the results depend on the processing

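Of 56 calls of single members, 36 held under every alternative run, and over 532 alternative fits 489 kept the call, 43 lost it and 0 changed sign. DESeq2, limma-voom and RLE factors kept every count of called members within 1.5 times, except that DESeq2 called 1 member in KA against AAV control in input, where edgeR called 0. The replicate block and the sequencing run gave 1 there as well, Scn3b in each case. The replicate block changed no other count of called members by over 1.5 times, and it added Scn3b to KA against AAV control in IP, Scn3b to IP against input of KA and Cacnb3 to the interaction from the AAV control baseline. Without the FPKM filter the counts rose to 11 in KA against AAV control in IP, 11 in KA against PBS in IP, 4 and 7 in the input comparisons of KA with AAV control and PBS, 11 in IP against input of KA and 7 in the interaction from the PBS baseline. Leaving out 1 replicate at a time, the count ran from 3 (without KA replicate 2) to 7 in KA against AAV control in IP, from 3 (without PBS replicate 3) to 8 in KA against PBS in IP, from 0 to 3 (without AAV control replicate 3) in PBS against AAV control in IP, from 0 to 1 (without KA replicate 3) and from 1 (without KA replicate 1 or 2 or PBS replicate 3) to 2 in KA against AAV control and PBS in input, from 0 to 1 (without AAV control replicate 3) in PBS against AAV control in input, from 8 (without AAV control replicate 1) to 16 in IP against input of AAV control, and from 5 (without AAV control replicate 1 or 2 or KA replicate 2) to 9 in the interaction from the AAV control baseline. The cause was not tested. Shares over all genes were not computed for the alternatives, so these counts of members have no share to be set beside. Genes with few counts, such as Cacng6, Cacna2d4 and Cacna1s, have wide errors at this depth.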
